A study of Mus musculus with 6 samples.

Results

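The Trim genes encode tripartite motif proteins. They were taken from the deposited raw counts as every gene whose symbol is Trim followed by a number, which gave 69 of 37576 counted genes. These 69 entries carry 68 symbols, because Trim30b is listed under a pair of Ensembl gene identifiers, and they lie on 15 chromosomes. One of them, Trim30e-ps1, is annotated as a pseudogene and the other 68 as protein coding.

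RNA of whole fetal livers at embryonic day 12.5, dispersed to single cells, was sequenced from C57BL/6 mice. The 3 wild-type livers (numbers 2, 15 and 17) were compared with 3 livers homozygous for Adar1 E861A (numbers 6, 16 and 19), a point mutation in the RNA-editing enzyme ADAR1 that removes its deaminase activity. All 3 E861A livers and wild type 2 were male, and wild type 15 and 17 were female, so sex is partly tied to genotype. The labels name no litter, and the p-values of gene counts measure the spread between these livers.

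A tripartite motif protein has an N-terminal RING domain, one or more B-boxes and a coiled coil, followed by a C-terminal part that differs between subfamilies and that binds the target. The RING domain gives most members ubiquitin ligase activity. Several members are induced by interferon and act in the sensing or restriction of viruses, whereas others regulate chromatin, red blood cell maturation, microtubules or muscle. ADAR1 deaminates adenosines of double-stranded RNA to inosines, and loss of its editing is known to let endogenous RNA activate the cytosolic sensor MDA5 and an interferon response.

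Libraries held 35280460 to 43733715 reads in genes. Trim genes together took 2041, 2630 and 2199 counts per 1000000 reads (CPM, scaled by TMM factors) in wild type 2, 15 and 17, and 3062, 2890 and 2891 CPM in E861A 6, 16 and 19. Hepatoblast markers (Alb, Afp and 5 others) summed to 14970 to 27030 CPM and erythroid markers (Hbb-b1, Klf1 and 7 others) to 13920 to 42390 CPM in the 6 libraries, so both main cell types of the labelled tissue were present. Genes were compared with edgeR's quasi-likelihood test, and a gene was said to rise or fall where its p, adjusted by Benjamini-Hochberg over the 16511 genes tested, was under 0.05.

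Of the 69 Trim genes, 55 had enough reads to be tested. In E861A liver 19 rose, 4 fell and 32 did not pass the test. Over all tested genes 7.77% rose and 4.26% fell. The median log2 fold change (E861A minus wild type) of the tested Trim genes was 0.31, against 0.04 over all tested genes. The 19 that rose ranged from 1.54 to 6.09 in log2 fold change with a median of 3.50, and 16 of them rose by more than 4-fold, which 459 of all tested genes did. Of the tested members, 5 had no wild-type library above the abundance filter of 0.245 CPM and so entered the test through E861A libraries, and 4 of these are among the 19. The rising genes Trim7, Trim30c and Trim66 were above the filter in only part of the wild-type libraries. They too needed E861A libraries to pass it. Of the 55 tested Trim genes, 23 had all E861A libraries above all wild-type libraries and 5 had them all below. Over all tested genes this arrangement was seen in 19.4% (above) and 14.5% (below). The genes that passed the test all had it, which passing a test on the same libraries makes likely. Of the 19 that rose, 12 kept the call in each of 13 alternative fits, whereas none of the 4 that fell did. The median was 0.61 without wild type 2.

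**Figure D1:**
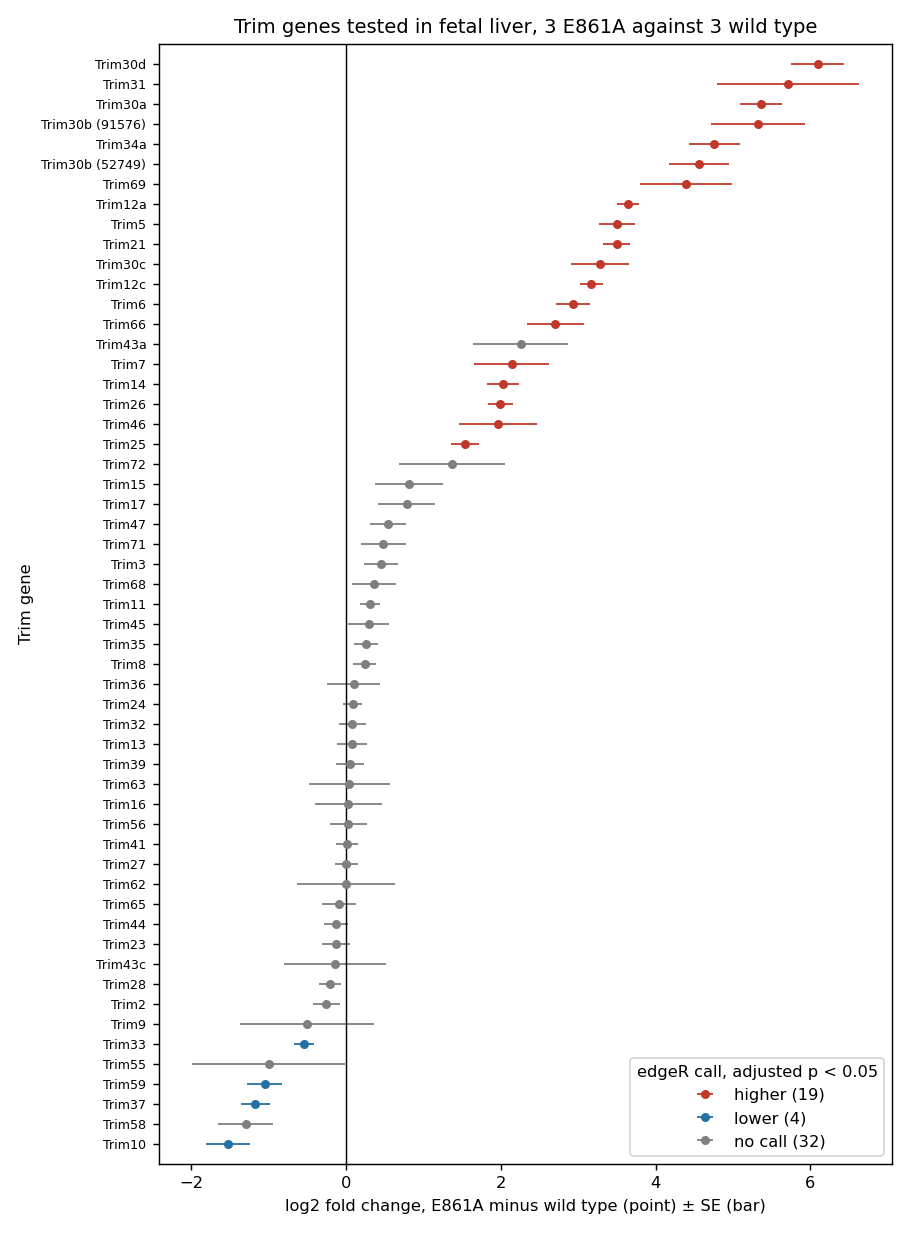
Log2 fold change (E861A minus wild type, x axis) with its standard error for each of the 55 tested Trim genes (y axis), coloured by the edgeR call at an adjusted p under 0.05. The 19 higher genes lie between 1.54 and 6.09, the 4 lower genes between -1.52 and -0.55, and 24 of the 32 genes with no call lie within 0.5 of 0.

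The group of antiviral and interferon-related members held 18 of the 69 genes. Of its 16 tested genes 15 rose and none fell, with a median log2 fold change of 3.50, and Trim56 was the exception. Over all tested genes 7.77% rose and 4.26% fell. The group was listed with earlier results of these data known, so its count is not independent of them. Trim69 and both Trim30b models are among the genes that entered the test through E861A libraries. Trim30c was above the filter in only part of the wild-type libraries and needed E861A libraries to pass it. The summed level of the group was 245 to 355.6 CPM in the wild-type libraries and 1341 to 1588 CPM in the E861A libraries. Of the 17 rising Trim genes with a promoter in the RefSeq table, 8 carry the core of the interferon-stimulated response element close to a transcription start. The windows around these matches are printed so that their letters can be compared. These 8 genes were picked for having the match, and the other rising genes with a promoter lack it. Each is written 5′ to 3′ on the strand of the gene, with the matched bases in capitals. The core searched was GAAA, any 2 bases, then GAAA again, on either strand, so a match on the opposite strand reads TTTC, 2 bases, TTTC. Letters are from the RefSeq promoters of build GRCm38.p6, and the NCBIM37 positions are where the whole promoter matched that build exactly.

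Trim30a (upstream promoter): tctttagTTTCTTTTTCtcagttc
Trim30a (downstream promoter): tttttagTTTCTTTTTCtcagttc
Trim30d: tctttagTTTCTTTTTCtcagttc
Trim12a: gttgtggTTTCTGTTTCatttcca
Trim12c: gttgtggTTTCTGTTTCatttcca
Trim5: gttgtggTTTCTGTTTCatttcca
Trim34a: tttggagTTTCAGTTTCttttctc
Trim21: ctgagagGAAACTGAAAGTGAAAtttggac
Trim26: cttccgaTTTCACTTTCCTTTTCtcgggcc

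The Trim12a, Trim12c and Trim5 windows have the same letters, and so do those of Trim30d and the upstream Trim30a promoter. Trim21 and Trim26 each hold 2 overlapping matches. The windows lie at chr7:111613727-111613750 and chr7:111594621-111594644 (Trim30a), chr7:111656388-111656411 (Trim30d), chr7:111463983-111464006 (Trim12a), chr7:111501876-111501899 (Trim12c), chr7:111392974-111392997 (Trim34a), chr7:109713961-109713990 (Trim21) and chr17:36973924-36973953 (Trim26). The Trim34a and Trim26 genes are on the plus strand and the other genes on the minus strand, and the Trim5 promoter had no exact match in NCBIM37. The match lay 49 to 40 bases before the start in Trim5, 41 to 32 before it in Trim30d, 10 to 19 bases after it in Trim12a and Trim34a, and 160 to 145 before it in Trim26.

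Promoters of 300 bases (250 before and 50 after the start) were at hand for 52 of the 68 symbols. The response element core was found in 8 of 17 rising Trim genes (47.1%), in 1 of 22 with no call (4.55%, Trim2), in 0 of 3 that fell and in 0 of 10 that were not tested. Over all 27025 genes of the table it was found in 1079 (3.99%). Near copies count as separate genes here. Trim12a, Trim12c and Trim5 have the same window, as do Trim30d and the upstream Trim30a promoter, so the 8 are not independent. A second interferon motif, the gamma-activated site TTCNNNGAA, was in 3 of the 17 rising genes (17.6%) and in 9.55% of all genes. The GATA motif AGATAA, searched on both strands as the others were, was in 0 of 17 rising genes, in 1 of the 3 that fell (Trim10) and in 12.7% of all genes. No response element match overlapped either of the other motifs. These matches describe letters in the window and do not show binding.

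**Figure D2:**
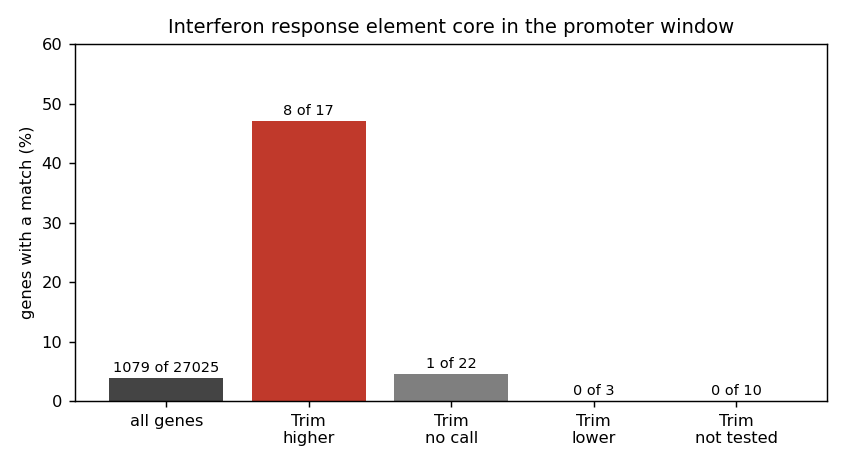
Share of genes (y axis, %) with the interferon-stimulated response element core in a promoter window, for all genes of the RefSeq table and for the Trim genes by their edgeR call (x axis). Bars carry the counts, 8 of 17 for the rising Trim genes and 1079 of 27025 for all genes.

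The Trim30 family consists of interferon-induced mouse genes, of which Trim30a is known to dampen Toll-like receptor signalling. Trim30a (chr7:111557539-111613707, minus strand) was at 9.04, 8.24 and 7.84 CPM in wild type 2, 15 and 17 and at 469.7, 292 and 271.3 CPM in E861A 6, 16 and 19. E861A 6 was the highest library, and the lowest E861A library lay far above the highest wild type. Its log2 fold change was 5.36 (SE 0.27, adjusted p 1.8e-05).

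Trim30d (chr7:111618528-111656363, minus strand) was at 1.36, 2.09 and 1.11 CPM in wild type and at 140, 90.9 and 80.5 CPM in E861A. The order of the E861A libraries was the one seen for Trim30a. With a log2 fold change of 6.09 (SE 0.34, adjusted p 4.0e-05) it had the largest fitted rise of the 55 tested members. Trim30c was lower in level, at 0.391, 0.183 and 0.291 CPM in wild type and 2.67, 2.88 and 2.98 CPM in E861A, and rose by 3.28 (SE 0.38, adjusted p 0.0015).

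The gene model of Trim30b with identifier ENSMUSG00000052749 was at 0.207, 0.235 and 0.132 CPM in wild type and 3.33, 5.42 and 5.01 CPM in E861A, a log2 rise of 4.56 (SE 0.38, adjusted p 0.000278). The second Trim30b model, ENSMUSG00000091576, had 2 reads in wild type against 96 in E861A, a ratio of 46.5 with a 95% counting interval of 12.5 to 390 (fitted log2 fold change 5.32, SE 0.61, adjusted p 0.0015). The 2 models share 75.5% of the exonic bases of the shorter one on the same strand, so their reads cannot be assigned with certainty. The pseudogene Trim30e-ps1 was not tested (1 wild-type read and 42 E861A reads), a ratio of 40.7 (6.92 to 1650). Coding sequences of different Trim30 genes were 79.5% to 90.2% identical to each other. Those of the 2 Trim30b models, 948 and 480 bases long, were 70.9% identical where aligned. Summed over its 6 entries the Trim30 family was at 11.04, 10.77 and 9.374 CPM in wild type and 616.9, 392.3 and 360.8 CPM in E861A, with a log2 fold change of 5.46 (SE 0.27, adjusted p 1.75e-05).

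Trim5, Trim12a and Trim12c are the mouse relatives of primate TRIM5, a factor that restricts retroviral capsids. Trim12a (chr7:111448408-111463980) was at 8.30, 8.63 and 8.16 CPM in wild type and at 95.3, 105.9 and 111.5 CPM in E861A. Trim12c (chr7:111487268-111501876) was at 10.9, 13.5 and 12.4 CPM in wild type and at 111.3, 103 and 117 CPM in E861A. Trim5 (chr7:111411900-111436608) was at 1.08, 1.04 and 0.90 CPM in wild type and at 11.7, 12.5 and 10.1 CPM in E861A. In all 3 genes the libraries of a genotype lay close together and the genotypes were far apart. The log2 fold changes were 3.64 (SE 0.14, adjusted p 7.48e-06) for Trim12a, 3.17 (SE 0.15, adjusted p 1.39e-05) for Trim12c and 3.50 (SE 0.23, adjusted p 6.86e-05) for Trim5. These genes have stretches in common: 20.4%, 28.5% and 29.2% of the 50-base words of Trim12a, Trim12c and Trim5 also occur in another Trim gene. Summed, the 2 Trim12 genes rose by 3.38 (SE 0.14, adjusted p 9.18e-06).

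Trim34a, an interferon-induced relative of Trim5, was at 1.98, 2.09 and 1.03 CPM in wild type and at 59.97, 39.52 and 38.7 CPM in E861A. Its log2 fold change was 4.76 (SE 0.33, adjusted p 0.000102). Its near copy Trim34b was not tested (5 wild-type and 29 E861A reads). The coding sequences of the 2 copies are 98.8% identical, and the sum of both rose by 4.73 (SE 0.33, adjusted p 0.000105). Trim34a exons also lie opposite 405 bases of Trim12c, and the strandedness of the counts is not given in the sources used here. Trim6, a ligase that makes free ubiquitin chains in interferon signalling, was at 4.48, 3.94 and 3.55 CPM in wild type and 37.8, 29.9 and 23.7 CPM in E861A, a rise of 2.93 (SE 0.22, adjusted p 0.000141).

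The Trim30, Trim12, Trim5, Trim34 and Trim6 genes all lie in one stretch of chromosome 7, with gene starts spread over 314.2 kb, that begins with Trim6 (chr7:111367307-111383666) and ends with Trim30e-ps1 (chr7:111681473-111683875). It holds 12 of the 69 Trim entries. All 10 that were tested rose, beside 7.77% of all tested genes. Both Trim30b models entered the test through E861A libraries, and Trim30c needed some of them to pass the filter. The other 2, Trim34b and Trim30e-ps1, had more reads in every E861A library than in any wild-type library. Together these 12 entries were at 37.9, 40.02 and 35.5 CPM in the wild-type libraries and at 933.3, 683.3 and 662.1 CPM in the E861A libraries, or 37.8 ± 2.28 against 759.6 ± 150.8 CPM (SD, n = 3 each). They made up 1.52% to 1.86% of all Trim CPM in wild type and 22.9% to 30.5% in E861A. The stretch holds 6 other annotated genes, of which 3 had no read. The 2 others that were tested both rose, the antisense gene Gm15133 by 4.05 (SE 0.49, 8 reads against 142) and the pseudogene Gm16464 by 3.09 (SE 0.70, 9 reads against 82). Neither had a wild-type library above the filter of 0.245 CPM, so both entered the test through E861A libraries. Gm15133 lies within the spans of Trim34a and Trim34b and Gm16464 within that of Trim30d, in each case on the same strand. Some of their reads may therefore belong to these Trim genes. In all, 12 of the 19 rising Trim genes are on chromosome 7, which carries 18 of the 69 members.

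**Figure D3:**
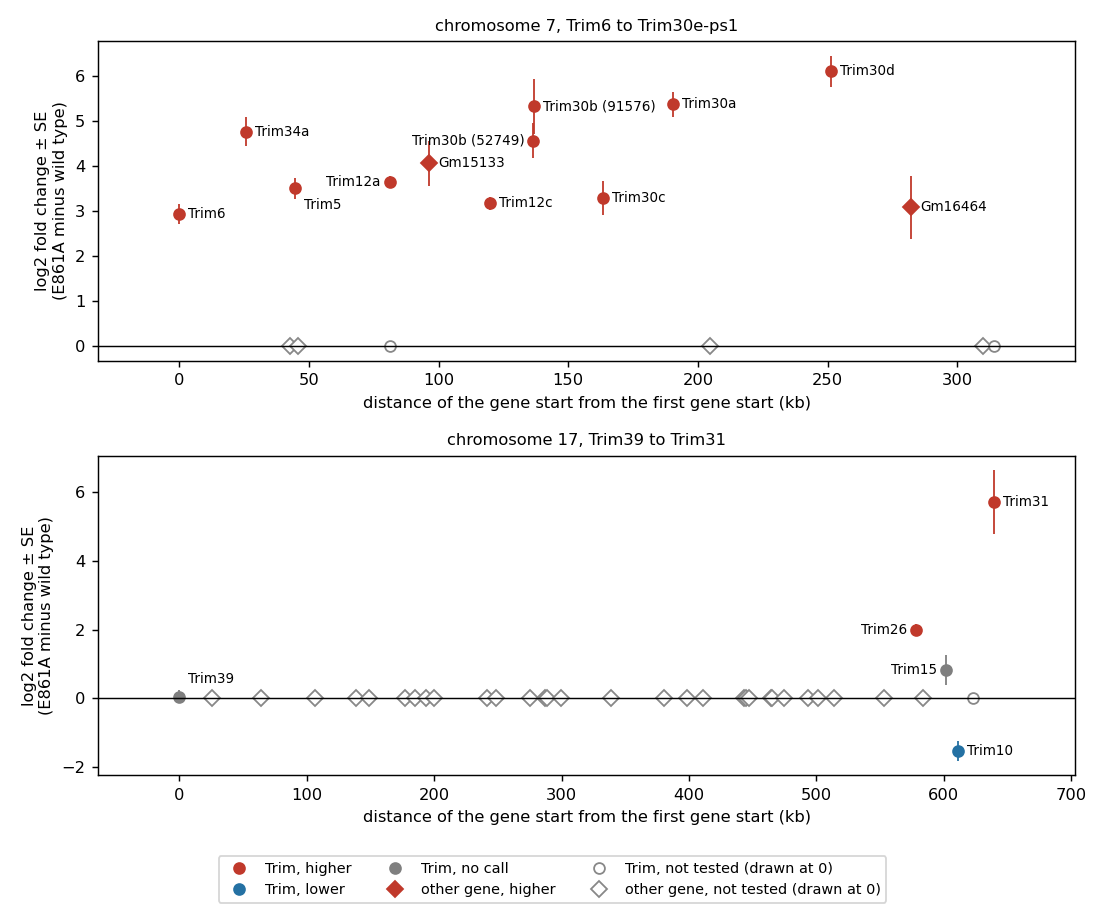
Log2 fold change with its standard error (y axis) against the distance of each gene start from the first gene start (x axis, kb) in the chromosome 7 stretch from Trim6 to Trim30e-ps1 and the chromosome 17 stretch from Trim39 to Trim31. On chromosome 7 all 10 tested Trim genes rose, and on chromosome 17 Trim26 and Trim31 rose, Trim10 fell and Trim39 and Trim15 had no call. Trim31, both Trim30b models, Gm15133 and Gm16464 entered the test through E861A libraries, and Trim30c needed some of them to pass the filter.

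Interferon-related members elsewhere in the genome rose too. Trim21, a cytosolic antibody receptor that marks coated viruses for degradation, is on chromosome 7 outside that stretch (chr7:109706436-109713983). It was at 10.32, 12.93 and 10.01 CPM in wild type and at 142.4, 121.5 and 111.6 CPM in E861A, a log2 fold change of 3.50 (SE 0.18, adjusted p 1.8e-05). Trim69 (chr2:121986436-122004763), whose product is known to restrict some RNA viruses, was near 0 in wild type at 0.138, 0.026 and 0.026 CPM, or 8 reads in all. It was at 1.54, 1.38 and 1.40 CPM in E861A, a rise of 4.39 (SE 0.59, adjusted p 0.00337).

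Trim25, the ligase that adds ubiquitin chains to the viral RNA sensor RIG-I, was the most abundant of the rising members in wild type. It lies at chr11:88860690-88881607 and was at 90.5, 137.3 and 110.7 CPM in wild type and at 304.4, 354.5 and 323.2 CPM in E861A. Its rise of 1.54 (SE 0.19, adjusted p 0.00201) was the smallest of the 19. Trim26 (chr17:36974079-36996343), a regulator of IRF3, was at 33.6, 29.9 and 24.6 CPM in wild type and 103.7, 125.9 and 121.2 CPM in E861A, a rise of 1.99 (SE 0.16, adjusted p 0.000241). Trim14 (chr4:46506653-46549013), an adaptor of the mitochondrial protein MAVS, was at 3.66, 5.35 and 4.34 CPM in wild type and 17.2, 19.7 and 17.5 CPM in E861A, a rise of 2.03 (SE 0.20, adjusted p 0.000659). For each of the 3 genes the genotypes did not overlap. Exons of the oppositely transcribed gene Nans cover 30.5% of the Trim14 exons, so some Trim14 reads may belong to Nans.

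Trim56, which takes part in antiviral signalling through STING and Toll-like receptors, was at 68.9, 130.1 and 80.2 CPM in wild type and at 85.4, 95.6 and 103.9 CPM in E861A. All 3 E861A libraries lay between the lowest and the highest wild type, and the log2 fold change was 0.03 (SE 0.24, adjusted p 0.957), with a sign that depended on the fit. Trim38, the last of this group, had 4 reads in wild type and 13 in E861A and was not tested.

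**Figure D4:**
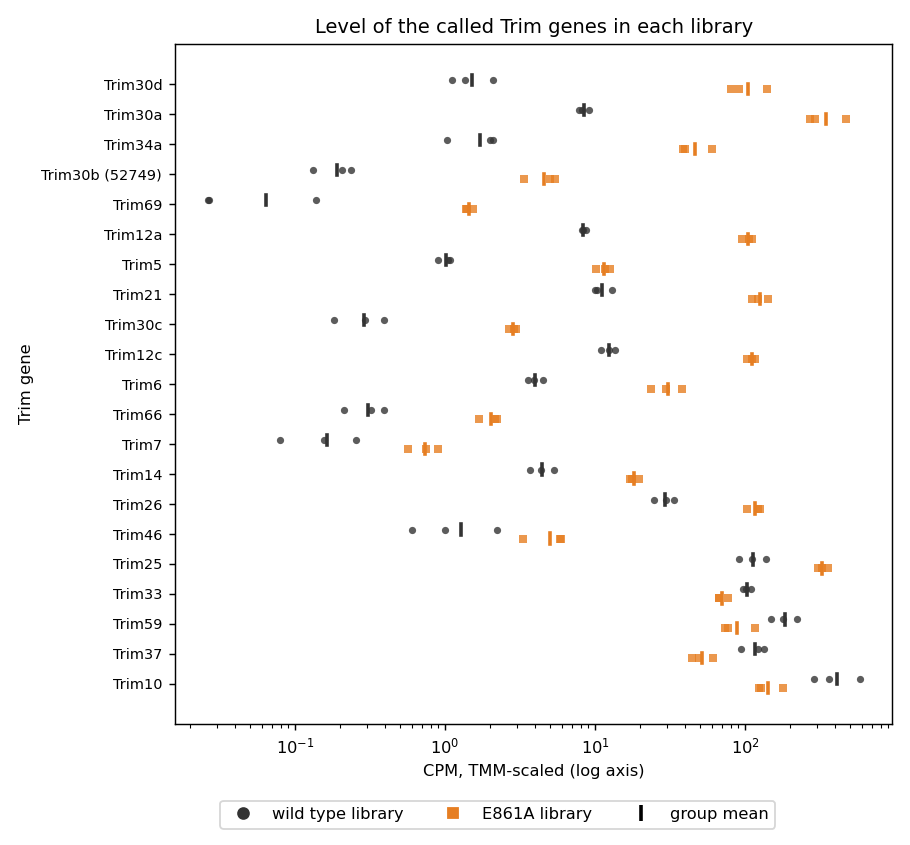
CPM in each library (x axis, log scale) of the called Trim genes with a read in every library (y axis), with wild-type libraries as dark circles, E861A libraries as orange squares and vertical ticks at the group means. In each row the genotypes do not overlap, from Trim30d at 1.11 to 2.09 against 80.5 to 140 CPM down to Trim10 at 288.3 to 581.6 against 123.8 to 178.4 CPM.

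The remaining 4 genes that rose belong to other listed groups and had low counts. Trim66 and Trim7 were above the abundance filter in only part of the wild-type libraries and needed E861A libraries to pass it. Trim31, a ligase reported to act on MAVS, had 1 read in wild type and 71 in E861A, at 0.331, 1.02 and 0.459 CPM in E861A 6, 16 and 19, a ratio of 68.8 (95% counting interval 12 to 2760). No wild-type library was above the filter of 0.245 CPM, so Trim31 entered the test through E861A libraries. Its fitted log2 fold change was 5.71 (SE 0.92, adjusted p 0.00741), and with sex as a covariate it was 7.60 and lost its call (adjusted p 0.0782). Trim66, a relative of the TIF1 corepressors that is best known from testis, was at 0.322, 0.391 and 0.212 CPM in wild type and 1.68, 2.23 and 2.17 CPM in E861A, a rise of 2.70 (SE 0.37, adjusted p 0.00347). It too lost its call with the sex term (2.64, adjusted p 0.0608).

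Trim7, whose product binds glycogenin, was at 0.253, 0.156 and 0.079 CPM in wild type and 0.567, 0.903 and 0.744 CPM in E861A, a log2 fold change of 2.14 (SE 0.48, adjusted p 0.0271). Trim46, which bundles microtubules in the axons of neurons, was at 2.23, 0.60 and 1.01 CPM in wild type and 3.31, 5.90 and 5.84 CPM in E861A, a log2 fold change of 1.97 (SE 0.50, adjusted p 0.0423). Both calls were lost in 5 of the 6 fits that left out a library and with the sex term (adjusted p 0.227 and 0.277). The 5 neuron markers summed to 16.03, 2.09 and 2.36 CPM in wild type and 3.10, 2.26 and 19.01 CPM in E861A. Trim46 and these markers were both high in E861A 19 and, among wild types, in wild type 2, whereas E861A 16 had a high Trim46 level and a low marker level. The part of neuron RNA in the Trim46 result was not tested. Exons of Krtcap2 lie opposite 6.3% of the Trim46 exons.

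The members that fell were among the most abundant Trim genes of the liver. Trim10, which is required in culture for terminal maturation of red cell precursors, was the most abundant Trim gene per length in wild type, at 183.5 ± 68.2 RPKM (CPM divided by exon length in kilobases; SD, n = 3), and ranked second in E861A at 64.0 ± 13.7 RPKM. It lies at chr17:37006519-37014770 and was at 288.3, 581.6 and 361.6 CPM in wild type and at 178.4, 123.8 and 127.1 CPM in E861A. Wild type 15 stood highest, and all E861A libraries were below all wild type. Trim10 fell by 1.52 on the log2 scale (SE 0.29, adjusted p 0.0144).

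Trim58, which promotes dynein degradation before red cell precursors lose their nucleus, was at 16.4, 38.9 and 20.8 CPM in wild type and at 7.45, 10.6 and 12.9 CPM in E861A. The genotypes did not overlap, but its log2 fold change of -1.30 (SE 0.35, adjusted p 0.0566) did not pass the test. It passed in 5 of 13 alternatives, with an adjusted p of 0.00112 in DESeq2. With the sex term it was at -0.67 (adjusted p 0.41) and in males only at -0.66 (0.507). The 9 erythroid markers used here were also lower in sum in E861A. Their summed level was 16930, 42390 and 22520 CPM in wild type 2, 15 and 17, the same order as for Trim10 and Trim58. It was 14470, 14760 and 13920 CPM in E861A 6, 16 and 19. There the order was not shared: the markers were highest in E861A 16, Trim10 in E861A 6 and Trim58 in E861A 19. Most of the sum came from Hbb-b1 and Hba-a1, and neither of these was called. Of these 9 markers 5 fell, none rose and none was at 0, with log2 fold changes of -1.92 to -0.45. Their part in the levels of Trim10 and Trim58 was not tested, nor was that of other cell types: 3 of 7 hepatoblast markers rose and none fell, 2 of 5 endothelial markers rose and 1 fell, and 2 of 6 macrophage markers rose and 1 fell. Over all tested genes 7.77% rose and 4.26% fell. All these marker calls are from the fit without the sex term. In whole liver, fewer cells of a type and less RNA per cell cannot be told apart.

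Trim37 (chr11:86940579-87034185), a ligase of histone H2A and of centriole proteins, was at 93.5, 133.9 and 121.3 CPM in wild type and at 61.1, 44.4 and 48.98 CPM in E861A. It fell by 1.17 on the log2 scale (SE 0.19, adjusted p 0.00733). Trim59 (chr3:68839210-68848677), one of the members with a membrane anchor, was at 179.3, 222 and 149.7 CPM in wild type and at 115.7, 73.6 and 76.7 CPM in E861A and fell by 1.05 (SE 0.23, adjusted p 0.0238). The other anchored member, Trim13, had no call. Trim33 (chr3:103083216-103162691), the TIF1 family member needed for blood formation, was at 96.6, 109.1 and 101.5 CPM in wild type and at 67.2, 66.6 and 76.6 CPM in E861A and fell by 0.55 (SE 0.13, adjusted p 0.033).

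None of these 4 falls kept its call with sex as a covariate, where log2 fold changes were -1.01 for Trim10, -0.86 for Trim37, -1.02 for Trim59 and -0.46 for Trim33, with adjusted p of 0.15, 0.0801, 0.15 and 0.19. In that fit 0.236% of all tested genes fell and 3.21% rose, and 15 Trim genes rose. Against wild type 2 alone, the 1 male control, all 4 kept a negative sign and none passed, where 0.0447% of all tested genes fell and 1.68% rose, 12 Trim genes among those that rose. Trim10 lost its call without E861A 16 (adjusted p 0.0699). Trim59 lost it without wild type 15 or 17 or E861A 16 or 19 (0.0519 to 0.101), and Trim33 without wild type 15 or 17 or E861A 6 or 16 (0.0605 to 0.16).

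**Figure D5:**
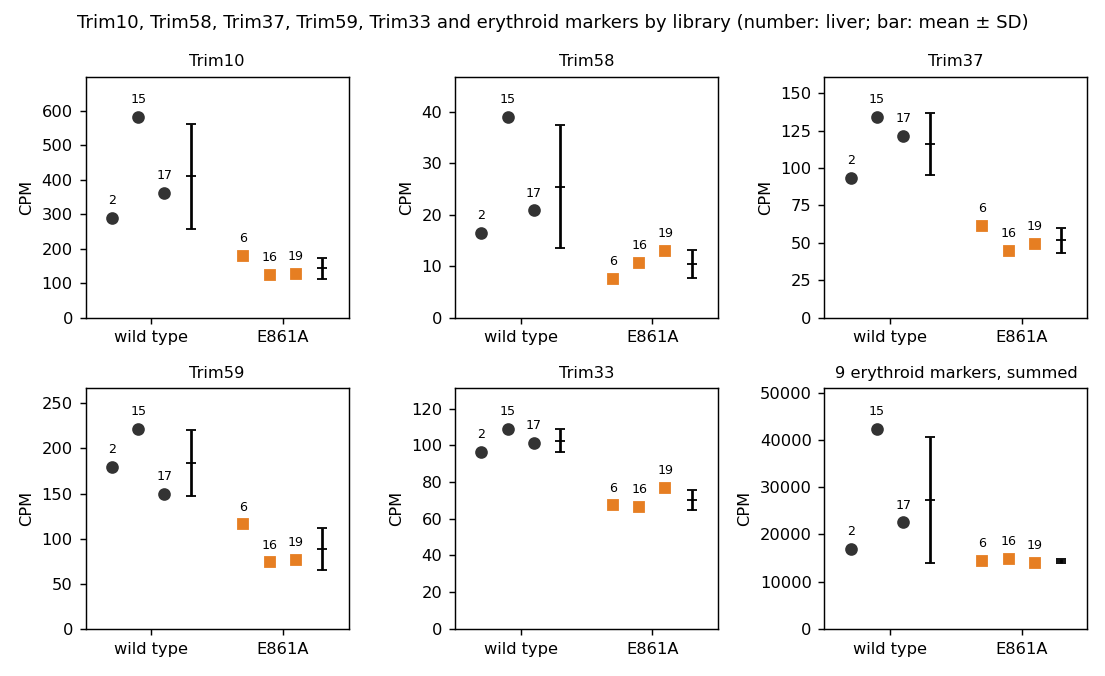
CPM (y axis) of Trim10, Trim58, Trim37, Trim59 and Trim33 and the summed CPM of 9 erythroid markers in each library, numbered by liver, with mean and SD bars of 3 libraries. Wild type 15 is the highest library in all 6 panels, and in every panel the E861A libraries lie below the wild-type libraries.

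The TIF1 chromatin group showed no common direction. Of its 4 members 1 rose (Trim66) and 1 fell (Trim33), beside 7.77% and 4.26% of all tested genes. The median log2 fold change of the group was -0.06. Trim28, the corepressor recruited by KRAB zinc finger proteins to silence retroelements, was the second most abundant Trim gene per length in wild type at 114.5 ± 9.67 RPKM and the first in E861A at 99.1 ± 6.47 RPKM. It was at 418.3, 491.5 and 478.7 CPM in wild type and at 371, 410.2 and 420.7 CPM in E861A. E861A 19 lay just above wild type 2, and the log2 fold change was -0.21 (SE 0.15, adjusted p 0.416). Trim24, a coregulator of nuclear receptors, was at 61.5, 55.8 and 54.1 CPM in wild type and 59.1, 59.7 and 63.4 CPM in E861A (0.09, SE 0.12, adjusted p 0.716).

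Among the other listed groups calls were few. None of the 4 members with NHL repeats (Trim2, Trim3, Trim32 and Trim71), which include RNA-binding regulators of development, was called, and their log2 fold changes ran from -0.25 to 0.48. The group with a COS box, which binds microtubules, had 5 of 7 members tested and only Trim46 called, and it includes the muscle genes Trim55 (39 reads in wild type, 20 in E861A) and Trim63 (29 and 30 reads). In a chosen list of other members with a SPRY domain, 12 were tested and 1 rose (Trim7), with a median of 0.16. Over all tested genes 7.77% rose. The list does not hold every member with this domain and leaves out Trim10 and Trim58, which are described above. It also holds no gene of the antiviral and interferon-related group, and it was chosen with earlier results of these data known. Its count is therefore not a result about the domain. Of the members with other single C-terminal domains, 1 of 4 fell (Trim37), beside 4.26% of all tested genes. Over the 32 genes with no call the log2 fold change ran from -1.30 to 2.26, and Trim43a had the highest (adjusted p 0.0514, 14 reads against 71). Trim43a passed without wild type 2 (adjusted p 0.033), with limma-voom (0.0454) and with no low count filter (0.0435). Trim11, Trim17, Trim43a and Trim47 had all E861A libraries above all wild type without a call.

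The Trim genes near the major histocompatibility complex on chromosome 17 differed among neighbours. From Trim39 (chr17:36395818-36409192) to Trim31 (chr17:37035063-37047159), whose starts are 639.2 kb apart, Trim26 and Trim31 rose, Trim10 fell, Trim39 and Trim15 had no call and Trim40 was not tested (9 reads against 43). Trim31 entered the test through E861A libraries. None of the 30 other annotated genes in the stretch had enough reads to be tested, and 27 had no read.

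The 14 members that were not tested had 0 to 67 reads each over all libraries. Trim42 and Trim52 had no read in any library. Trim54 had none in wild type and 5 in E861A, which is at least 1.61-fold higher against a floor of 3 reads over the genotype. Trim29 had the most, 18 wild-type and 49 E861A reads, and the others not yet named were Trim43b, Trim50, Trim60, Trim61, Trim67 and Trim75.

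The order of the Trim genes by level differed between genotypes. At least 1 RPKM was reached by 30 members in wild type and 37 in E861A, and at least 10 RPKM by 13 and 17. Of the 19 rising genes 12 were under 1 RPKM in wild type. Trim30a went from rank 29 of 69 by RPKM in wild type (1.06 ± 0.077) to rank 5 in E861A (43.7 ± 13.8), and Trim21 from rank 21 (3.996 ± 0.578) to rank 4 (45.1 ± 5.66). Trim25 went from rank 6 (19.6 ± 4.07) to rank 3 (56.9 ± 4.4), and Trim59 from rank 3 (54.8 ± 10.8) to rank 8 (26.45 ± 7).

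TRIM proteins that carry other symbols and the partners of Trim proteins were described by lists. Pml, the tripartite motif protein of nuclear bodies, rose from 107.7 ± 16.3 to 258.1 ± 17.1 CPM (SD, n = 3; log2 fold change 1.26, SE 0.16, adjusted p 0.00259). Mefv, the pyrin gene, had no call (1.18, SE 0.42, adjusted p 0.112), nor did the microtubule-associated Mid1 (0.23, SE 0.15) and Mid2 (0.20, SE 0.27). Around TRIM25 and RIG-I, 4 of 8 listed genes rose and 1 fell, beside 7.77% and 4.26% of all tested genes. Isg15, a ubiquitin-like modifier, rose by 8.55 (SE 0.69), Ddx58, which encodes RIG-I, by 5.38 (SE 0.20) and Herc6, the mouse ligase for ISG15, by 4.39 (SE 0.22), and Rnf135, a second RIG-I ligase, rose by 1.40 (SE 0.22). Mavs, the adaptor below RIG-I, fell by 0.77 (SE 0.20, adjusted p 0.0457). The calls of these partner genes are from the fit without the sex term.

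The ubiquitin machinery that Trim ligases use showed no call. None of 14 tested ubiquitin-conjugating enzymes passed, with a median log2 fold change of -0.16. Of all tested genes 7.77% rose and 4.26% fell, and at these shares a list this short can hold no call. Its enzymes were therefore not set apart from other genes by the count. Ube2e3 had the smallest p of these enzymes. It was at 121.5, 153.5 and 126.5 CPM in wild type and 104.4, 58.1 and 75.1 CPM in E861A (-0.76, SE 0.22, edgeR adjusted p 0.0675). Ube2l6, which also conjugates ISG15, was at 200.3, 435.3 and 235.4 CPM in wild type and 727.2, 457.6 and 422.6 CPM in E861A (0.88, SE 0.34, edgeR adjusted p 0.142). None of the 5 ubiquitin and ubiquitin-activating genes passed either. Of the 15 tested entries around TRIM28 silencing 2 fell, beside 4.26% of all tested genes, Uhrf1 by 0.91 (SE 0.19, adjusted p 0.0205) and Cbx5 by 0.78 (SE 0.14, adjusted p 0.0121), and the median was -0.28.

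The deposited table of A-to-I editing sites held 6012 sites, of which 19 lie in 6 Trim genes. It answers whether Trim transcripts were themselves edited in wild type and not in E861A. With reads summed per genotype and at least 10 reads in each, 17 of the 19 could be tested by a two-sided Fisher exact test adjusted over 3883 sites, and 4 were lower in E861A. Over all tested sites 16.7% were lower. These p-values treat the pooled reads as independent and hold no spread between livers, and 3 of the 4 calls were lost in at least 1 of the tests that left out a library. Trim12c held 11 sites in its 3′ UTR and Trim12a held 3 in an intron. The 4 sites that were lower are shown because they are the Trim sites with a lower editing level in E861A by this test. They are written 5′ to 3′ on the transcript strand with the edited adenosine in capitals and 10 bases on either side, from NCBIM37.

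Trim12c chr7:111487820: gtgtattcttAgtgatcactt
Trim12c chr7:111487793: gtcacaataaAgaccccaaat
Trim12c chr7:111487794: agtcacaataAagaccccaaa
Trim12a chr7:111456572: cattacaggcAgggctatcca

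At chr7:111487820 in Trim12c, edited reads were 14 of 93 in wild type (15.1%, 95% Wilson interval 9.18% to 23.7%), with 7, 5 and 2 edited reads in wild type 2, 15 and 17. In E861A 0 of 1248 reads were edited, which allows a level of up to 0.24% (adjusted p 1.04e-15, Fisher exact test). The 2 adjacent sites at 111487793 and 111487794 had 4 of 87 (4.6%) and 3 of 85 (3.53%) edited reads in wild type and 0 of 1142 and 0 of 1136 in E861A (adjusted p 0.000273 and 0.00291, Fisher exact test). Neither had an edited read in wild type 17, and without wild type 2 neither passed (adjusted p 0.155 and 0.153, Fisher exact test). The other 8 Trim12c sites had no edited read in wild type and 1 or 2 in E861A, which is at most 0.296% of reads. Intervals and floors cover counting error only.

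The Trim12a site at chr7:111456572 had 6 of 20 edited reads in wild type (30.0%, interval 14.5% to 51.9%) and 12 of 189 in E861A (6.35%, 3.67% to 10.8%), of which 10 came from E861A 19 (adjusted p 0.0218, Fisher exact test). Its window occurs 2 times on chromosome 7 of the build, so reads of the copy may be counted here. The call was lost without E861A 16 (adjusted p 0.107, Fisher exact test) or wild type 17 (0.0634), and fewer than 10 wild-type reads were left without wild type 15. The coverage of these sites follows the rise of their genes, with 52 to 94 wild-type and 676 to 1403 E861A reads at the Trim12c sites, so the wild-type levels rest on few reads. Single sites of Trim33 and Trim37 had too few reads to test, and the 2 sites of Trim41 and the 1 of Trim8 did not pass.

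The authors' deposited table of differential expression lists 45 of the Trim entries. By the authors' deposited p-values 16 of these were higher and 4 lower in the mutant (under 0.05), beside 8.44% and 4.84% of its 14484 entries. All 16 and all 4 had the same call here.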

How the data were processed

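Raw counts for each Ensembl gene and library were used as deposited by the authors. Per the submitters' processing notes the tools were limma, edgeR, HTSeq, BWA, Cufflinks, TopHat2 2.0.8 and Trimmomatic 0.30, SAMtools 0.1.19 and Bowtie2 2.1.0.0, with no role or order given, and builds were NCBIM37 and mm9. The strandedness and the editing caller are not given in the sources used here. Per the file headers, the deposited editing table gives the coverage of each site and its editing level, a fraction. Edited reads were level times coverage, whole to within 2.3e-06. The authors' deposited table of log2 fold changes and adjusted p-values was read only for its calls, with its sign turned.

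Counts were filtered with filterByExpr, scaled with TMM factors and compared with edgeR 4.0.16 (R 4.3.3, robust quasi-likelihood fit and F test, Benjamini-Hochberg adjustment over 16511 genes). Log2 fold changes are E861A minus wild type. CPM are per 1000000 TMM-scaled reads, RPKM divide by GENCODE M1 exonic length, and SE is the log2 fold change divided by the root of F. With 3 against 3 livers an exact permutation test of 1 gene cannot go below 0.1. Replicate pairs differed by more than counting error (chi-square per degree of freedom 40.1 to 124.6). Both tests were tested on simulated data. Alternatives were DESeq2 1.42.0, limma-voom 3.58.1, RLE size factors, other filters, a sex term, males only and leaving out each library. All positions are NCBIM37.

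Members and gene lists were chosen with earlier results of these data known. The genes given in full were members past the threshold, tested members of the interferon, erythroid and TIF1 lists, and the 5 most abundant per length. Up to 4 genes per partner list were named by smallest p, and all of the TRIM proteins under other symbols. Mavs, Trim members outside these rules, and the neighbours on chromosome 7 were named after their values were seen. Of the erythroid marker list, 1 gene is not reported here and is in no sum.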

Additional observations from a re-analysis of the deposited data

How the results depend on the processing

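No paired analysis was possible because no replicate number occurs in both genotypes and no litter is labelled. The count of Trim genes that rose was 15 to 21 with DESeq2, limma-voom, RLE size factors, other filters or a sex term, 12 in males only and 17 to 24 when 1 library was left out. The count that fell was 4 or 5 with the other tools, scalings and filters, 0 with the sex term, 0 in males only and 1 to 5 without 1 library; with the sex term and in males only fewer samples inform the comparison. The median log2 fold change ran from 0.19 to 0.61 when 1 library was left out. Over all genes 530 rose and 39 fell with the sex term, and 301 and 8 in males only, against 1283 and 703. All genes that fell numbered 1538 with DESeq2 and 1160 with the 1 CPM filter. Without 1 library, 515 to 1737 of all genes rose and 95 to 1502 fell. In the male fit the lone wild type is assumed to vary as the E861A livers do.

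The genes that kept their rise in all 13 alternatives were Trim5, Trim6, Trim12a, Trim12c, Trim14, Trim21, Trim25, Trim26, Trim30a, Trim30d, Trim34a and Trim30b (ENSMUSG00000052749), with log2 fold changes of at least 1.39 and edgeR, DESeq2 or limma adjusted p of at most 0.0263. For the genes given in full and Trim11, Trim17, Trim43a and Trim47, 343 single comparisons kept direction and call. In the same set 38 lost the call, 8 gained it and 9 changed sign, all 9 in genes with no call. Members with no call outside this set changed sign too, such as Trim16 in 9 alternatives and Trim41 and Trim63 in 7 each. Trim56 was at -0.0176 with DESeq2 and with RLE factors, at -0.0137 with no filter, and from -0.16 to 0.35 without 1 library. Trim24 was at -0.0174 with the sex term and at -0.00753 in males only. The cause was not tested. Of the Trim editing sites 3 to 5 were lower over the alternatives. Depth limited the 14 members not tested and the wild-type editing levels.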
